A study of Mus musculus with 28 samples.

Results

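Integrins are receptors of the cell surface that bind proteins of the extracellular matrix, and each is a pair of 1 alpha and 1 beta subunit. The alpha subunit largely sets which matrix protein is bound, and the tail of the beta subunit connects the receptor through talin and kindlins to actin or, for the product of Itgb4, through plectin to keratin filaments. Endoderm of the early embryo sits on a basement membrane of laminin and collagen IV, which integrins bind.

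The integrin subunits described here are Itga3, Itga5, Itga6, Itga7, Itgav, Itgb1, Itgb3, Itgb4, Itgb5 and Itgb8, chosen by gene symbol. They were picked with earlier results of these data known. These 10 genes had 22 probes, out of 19057 genes and 45281 probes on the array. A probe counted as detected on an array when it stood out from the negative control beads there (detection p-value below 0.01), and detection on at least 3 arrays was required. That left 13 probes of 7 of these genes (9951 genes in all), and for these 7 genes the probe with the highest mean was detected on 28 of 28 arrays.

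The cells were XEN-eYFP, a mouse line of extraembryonic endoderm stem cells, which grow from the primitive endoderm of the blastocyst and here were labelled as carrying eYFP. RNA was taken after 96 h in medium alone (Media, 5 arrays), with recombinant Nodal at 50 ng/ml (5 arrays), with recombinant Cripto at 100 ng/ml (5 arrays), with the Alk4 inhibitor SB431542 (5 arrays), with Nodal and SB431542 (3 arrays) or with Cripto and SB431542 (5 arrays). Nodal, a secreted factor related to TGF-beta, acts on the receptor kinase Alk4. Cripto serves Nodal as a co-receptor, and SB431542 blocks the kinase of Alk4 and its closest relatives. The groups were those of 1 cell line, the dose of SB431542 is not given in the labels, and the labels do not say whether the arrays of a group came from separate cultures, so each p-value sets a difference against the spread of these samples only, which may be technical.

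The arrays lay on 7 BeadChips, the slides that carry the arrays. Mean signal ran from 184 to 995, and chip 5 was the dimmest, at 184 to 341. The Media arrays ran from 184 to 546, the Nodal arrays from 341 to 906 and the arrays of Cripto with SB431542 from 639 to 875. All 9 markers of primitive endoderm and XEN cells were detected, with a summed log2 level of 114 to 117 in Media 112 to 114 with Nodal and 110 to 113 with Cripto. None of the 7 fibroblast feeder markers was detected. Of the markers of other lineages, 2 of 5 for epiblast (Pou5f1 and Zfp42, with Nanog on 0 arrays), 2 of 6 for trophoblast (Cdx2 and Gata3, with Elf5, Eomes, Hand1 and Tfap2c on 0 arrays) and 3 of 6 for endothelium and blood (Cdh5, Itga2b and Itgb2, with Pecam1 and Ptprc on 0 arrays) were detected on 3 or more arrays. The summed level of the trophoblast list ran from 32.6 to 34.3 in Media, from 29.9 to 30.7 with Nodal and from 30.0 to 32.0 with Cripto. Within it Gata3 had means of 9.51, 5.49 and 5.73 in these groups, and Cdx2 was detected on no Media or Nodal array and on all 5 Cripto arrays, with a mean of 6.34. That of the endothelium and blood list ran from 35.2 to 39.9 in Media, from 33.8 to 38.7 with Nodal and from 33.8 to 35.3 with Cripto. Within it Cdh5 had means of 11.34, 8.35 and 8.21, Itga2b of 5.16, 6.05 and 5.35 and Itgb2 of 5.42, 5.76 and 5.60. The epiblast list ran from 27.0 to 28.7 in Media, from 26.3 to 28.3 with Nodal and from 26.4 to 28.7 with Cripto. The part of these lists in the integrin values was not tested.

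Nodal and Cripto each moved Itga3, Itga5, Itga6, Itgb4 and Itgb5 past the test, and Cripto also Itgav. Compared with Media, the laminin receptor subunits Itga3 and Itgb4 and the fibronectin receptor subunit Itga5 rose, and the laminin receptor subunit Itga6 and the vitronectin receptor subunit Itgb5 fell. Itgb4 was 4.47-fold higher with Nodal and Itga6 3.76-fold lower. The product of Itgb4 is known to pair only with that of Itga6. With SB431542 present none of these 5 subunits passed the test for Nodal, and all 5 passed it for Cripto. The level of Itgb1, the beta subunit shared by most of these alpha subunits, passed the test in none of the comparisons on its main probe.

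The promoters of 2 subunits that rose and of 1 that fell are shown because these genes moved together (Itga3, Itga5) or the other way (Itgb5). RefSeq's table for GRCm38.p6 held promoters of 6 of the 10 subunits, with none for Itga6, Itga7, Itgb3 and Itgb4 and more than 1 start for Itga3, and the 250 bases before the start are printed here 5′ to 3′ on the strand of the gene. Capitals mark each CAGAC, the short element that Smad proteins bind, and each GGGCGG, the GC box, read on both strands. The windows are chr11:95076715-95076964 (minus strand) for Itga3, chr15:103366792-103367041 (minus strand) for Itga5 and chr16:33829415-33829664 (plus strand) for Itgb5.
Itga3: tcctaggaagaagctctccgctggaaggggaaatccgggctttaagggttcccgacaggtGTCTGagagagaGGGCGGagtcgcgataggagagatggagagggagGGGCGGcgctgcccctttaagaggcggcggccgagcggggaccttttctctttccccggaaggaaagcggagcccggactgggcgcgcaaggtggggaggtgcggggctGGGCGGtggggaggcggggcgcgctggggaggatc
Itga5: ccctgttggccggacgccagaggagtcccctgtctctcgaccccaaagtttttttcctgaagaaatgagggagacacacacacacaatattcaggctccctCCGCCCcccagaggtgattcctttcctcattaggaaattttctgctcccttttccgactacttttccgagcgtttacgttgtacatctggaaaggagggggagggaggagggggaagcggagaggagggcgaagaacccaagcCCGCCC
Itgb5: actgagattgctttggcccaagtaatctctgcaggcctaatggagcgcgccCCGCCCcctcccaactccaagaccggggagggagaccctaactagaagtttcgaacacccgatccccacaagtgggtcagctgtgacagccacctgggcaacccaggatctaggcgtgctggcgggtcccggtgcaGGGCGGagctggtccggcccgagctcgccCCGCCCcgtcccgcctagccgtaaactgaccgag

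CAGAC was found once in the Itga3 window shown and not in the Itga5 or Itgb5 window, and 42.2% of the 32851 promoter windows of this length in the table hold it. GGGCGG was found 3 times for Itga3, 2 times for Itga5 and 3 times for Itgb5 in the windows shown, against 32.7% of all windows with at least 1. The window of the other Itga3 start in the table held CAGAC 0 times and GGGCGG 1 time. No base lay in 2 motifs. The letters TGTNNATT (the FoxH1 element, in 10.9% of windows), AGATAA (the GATA element, in 9.99%) and TGANTCA (the AP-1 element, in 6.75%) were in none of these 3 windows. The windows had 67.6%, 55.6% and 65.2% G or C. Of the other subunits in RefSeq's table, the Itgb1 window held CAGAC 3 times and GGGCGG 1 time. The Itgb8 window held CAGAC 1 time and GGGCGG 0 times, and the Itgav window held neither.

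Levels below are log2 values after background correction and quantile normalisation, and a change is the difference of such levels between groups with the chip held fixed, ± its standard error. Its adjusted p-value is from limma with Benjamini-Hochberg adjustment over 9951 genes, and a gene is called when that is below 0.05. An array measures the RNA of all cells together, so fewer cells with a transcript and less of it per cell cannot be told apart.

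Of the 7 subunits tested, 5 were called with Nodal against Media, where 57.6% of all genes were called, and 6 with Cripto against Media, where 64.5% were. The median absolute change over the 7 subunits was 1.67 with Nodal, and over all genes 0.43. With Cripto these medians were 1.83 and 0.54. The arrays of 4 subunits did not overlap between Nodal and Media (25.9% of all genes) and those of 5 between Cripto and Media (37.8% of all genes). Because the subunits were picked with earlier results known, these counts and medians cannot show that integrins moved more than other genes.

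**Figure D1:**
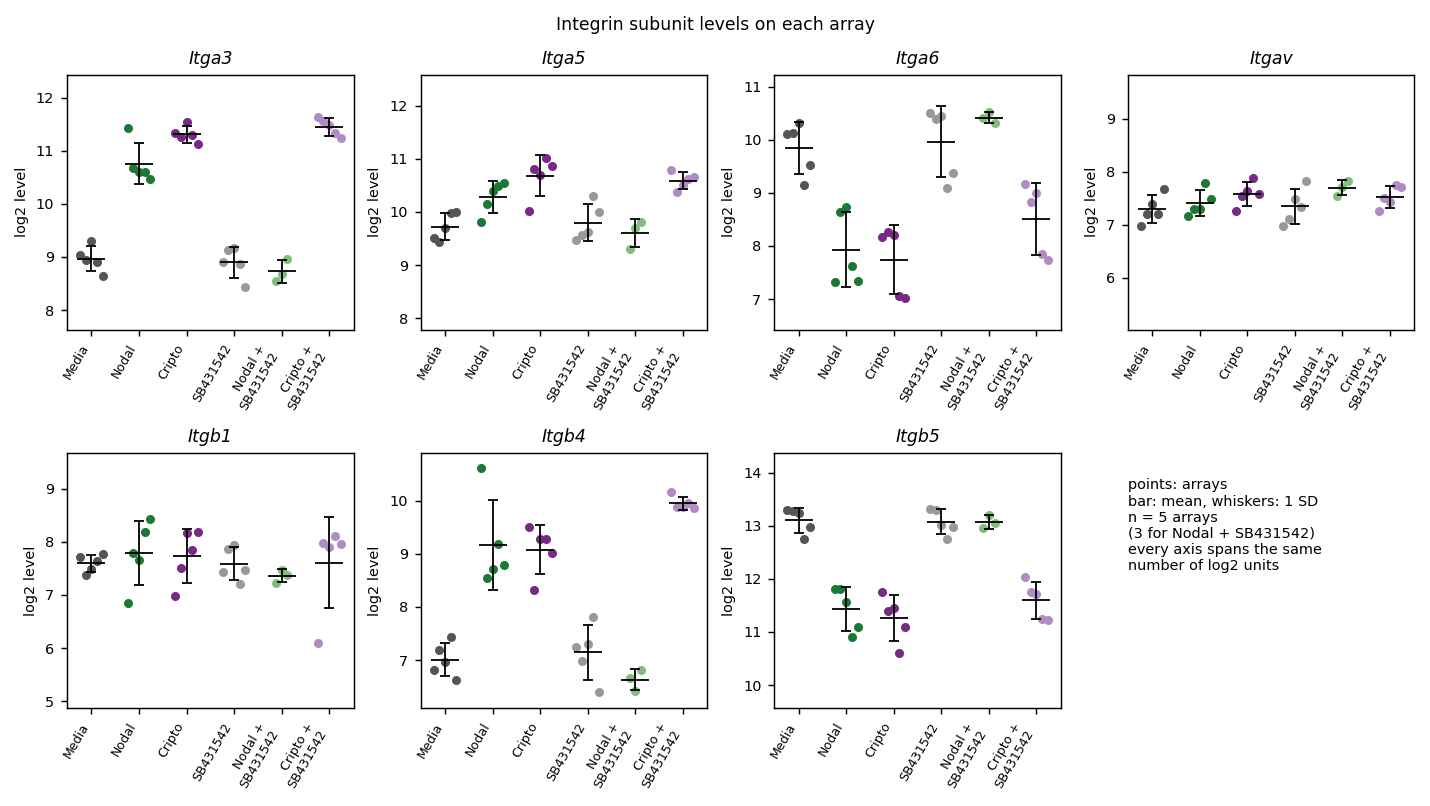
Log2 level of the main probe of each of the 7 tested integrin subunits (vertical axis) on every array (points, in order of chip) by treatment group, with the group mean (bar) and 1 SD (whiskers). Itga3 and Itgb4 are high with Nodal, with Cripto and with Cripto and SB431542, and Itga6 and Itgb5 are low in the same groups.

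The alpha subunits that make laminin receptors moved in opposite directions. Itga3, whose product pairs with that of Itgb1, stood at 9.05, 8.95, 9.30, 8.90 and 8.65 on the Media arrays. With Nodal it stood at 11.43, 10.68, 10.59, 10.60 and 10.46, and with Cripto at 11.33, 11.25, 11.54, 11.30 and 11.12. Every array of either ligand was above every Media array. The change was 1.78 ± 0.13 with Nodal (3.44-fold, limma adjusted p = 2.79e-10) and 2.31 ± 0.13 with Cripto (4.98-fold, limma adjusted p = 5.08e-12). Within the chips that held both groups it ran from 1.29 to 2.38 for Nodal (5 chips) and from 2.28 to 2.47 for Cripto (4 chips).

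Itga6 has the opposite pattern. On the Media arrays it stood at 10.10, 10.13, 10.31, 9.14 and 9.52. On the Nodal arrays it stood at 7.32, 8.65, 8.73, 7.62 and 7.34, and with Cripto at 8.17, 8.26, 8.20, 7.06 and 7.01. All arrays with either ligand were below all Media arrays. Itga6 fell by 1.91 ± 0.18 with Nodal (limma adjusted p = 1.41e-08) and by 2.08 ± 0.18 with Cripto (4.24-fold, limma adjusted p = 3.74e-09). In Media, with Cripto, with SB431542 and with Cripto and SB431542, the Itga6 arrays on chips 5 to 7 lay below those on chips 1 to 4. Before any correction or scaling, the Itga6 signal on chip 3 was 895 in Media and 899 with Nodal, and on chip 5 it was 159 in both. The ratio of Nodal to Media in these unscaled signals ran from 0.257 to 1.004 over 5 chips, on arrays whose mean signal was higher with Nodal. For Cripto it ran from 0.326 to 0.790 over 4 chips. A second probe of Itga6 was detected on 3 Media arrays and on no Nodal or Cripto array. It was at least 1.25-fold lower with Nodal and at least 1.176-fold lower with Cripto.

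Itgb4, the beta subunit of hemidesmosomes, rose. It stood at 6.82, 7.19, 6.96, 7.44 and 6.63 on the Media arrays. Levels with Nodal were 10.61, 8.54, 8.71, 9.19 and 8.78, and with Cripto at 9.51, 8.31, 9.27, 9.28 and 9.02. The groups did not overlap, and the first Nodal array lay above the other 4. The change was 2.16 ± 0.25 with Nodal (limma adjusted p = 3.03e-07) and 2.01 ± 0.25 with Cripto (4.02-fold, limma adjusted p = 7.53e-07). In the authors' deposited values the change of Itgb4 was smaller, 1.16 for Nodal and 1.04 for Cripto, and still called. A second probe of Itgb4 was not well above background on any Media array and was at least 2.37-fold higher with Nodal and at least 3.55-fold higher with Cripto.

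Itga5, whose product pairs with that of Itgb1 to bind fibronectin, changed less. It stood at 9.52, 9.43, 9.69, 9.98 and 9.995 in Media. On the Nodal arrays it stood at 9.82, 10.15, 10.39, 10.49 and 10.54, and with Cripto at 10.02, 10.80, 10.70, 11.01 and 10.87. The Nodal arrays overlapped the Media arrays and the Cripto arrays did not. The change was 0.55 ± 0.11 with Nodal (1.47-fold, limma adjusted p = 0.000352) and 0.95 ± 0.12 with Cripto (1.93-fold, limma adjusted p = 5.56e-07), and it was higher on every chip with both groups. With each array centred on its median instead, it was 1.17 for Nodal and 1.60 for Cripto. That centring puts the median of all genes 0.45 higher with Nodal and 0.44 higher with Cripto.

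Itgav with its partners binds vitronectin and other proteins with an RGD sequence. Itgb5, which pairs with Itgav, stood at 13.29, 13.28, 13.23, 12.75 and 12.97 in Media. Levels with Nodal were 11.80, 11.81, 11.57, 10.90 and 11.10, and with Cripto at 11.75, 11.40, 11.44, 10.60 and 11.09. The ligand arrays lay wholly below the Media arrays. Itgb5 fell by 1.67 ± 0.11 with Nodal (3.18-fold, limma adjusted p = 4.15e-11) and by 1.83 ± 0.11 with Cripto (3.56-fold, limma adjusted p = 1.14e-11). In unscaled signals it was also lower on each chip, at 0.370 to 0.763 of Media with Nodal and 0.384 to 0.551 with Cripto.

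On its main probe Itgav stood at 6.98, 7.21, 7.39, 7.20 and 7.68 in Media. The Nodal arrays had 7.17, 7.30, 7.30, 7.79 and 7.48, and with Cripto at 7.27, 7.55, 7.64, 7.88 and 7.57. These 3 groups overlapped. The change was 0.12 ± 0.11 with Nodal (limma adjusted p = 0.367) and 0.26 ± 0.11 with Cripto (limma adjusted p = 0.0396), and without BeadChip 5 the Cripto value was 0.16 and not called (limma adjusted p = 0.234). Without the Media array of BeadChip 5 it was 0.17, also not called (limma adjusted p = 0.177), and the call was lost without any 1 of 7 of the Media and Cripto arrays. With each array centred on its median instead, Itgav was 0.55 higher with Nodal (limma adjusted p = 0.00923) and 0.71 higher with Cripto (limma adjusted p = 0.00142), both called. That centring puts the median of all genes 0.45 higher with Nodal and 0.44 higher with Cripto. The Cripto call of Itgav held in 8 of 26 alternatives. It was also lost with no background correction, in the authors' deposited values, with no detection filter and with no chip term. Trend and robust moderation, array brightness as a covariate, chips 1 to 4 and chips 5 to 7 lost it too.

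The probes of Itgav did not move alike. A probe to the transcript AK079805, detected on 17 of 28 arrays, fell by 1.38 ± 0.18 with Nodal (limma adjusted p over 18471 probes = 2.42e-06) and by 1.13 ± 0.19 with Cripto (limma adjusted p = 2.52e-05). It was detected on 5 Media arrays, 1 Nodal array and 3 Cripto arrays, so the sizes rest partly on values near background. A probe to AK020674 was detected on 4 of 28 arrays and on none of the Media arrays, so no size of change is given for it. The remaining probes of Itgav, to AK080357 and AK036485, were detected on no array. Where in the transcript these probes lie was not analysed here.

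**Figure D2:**
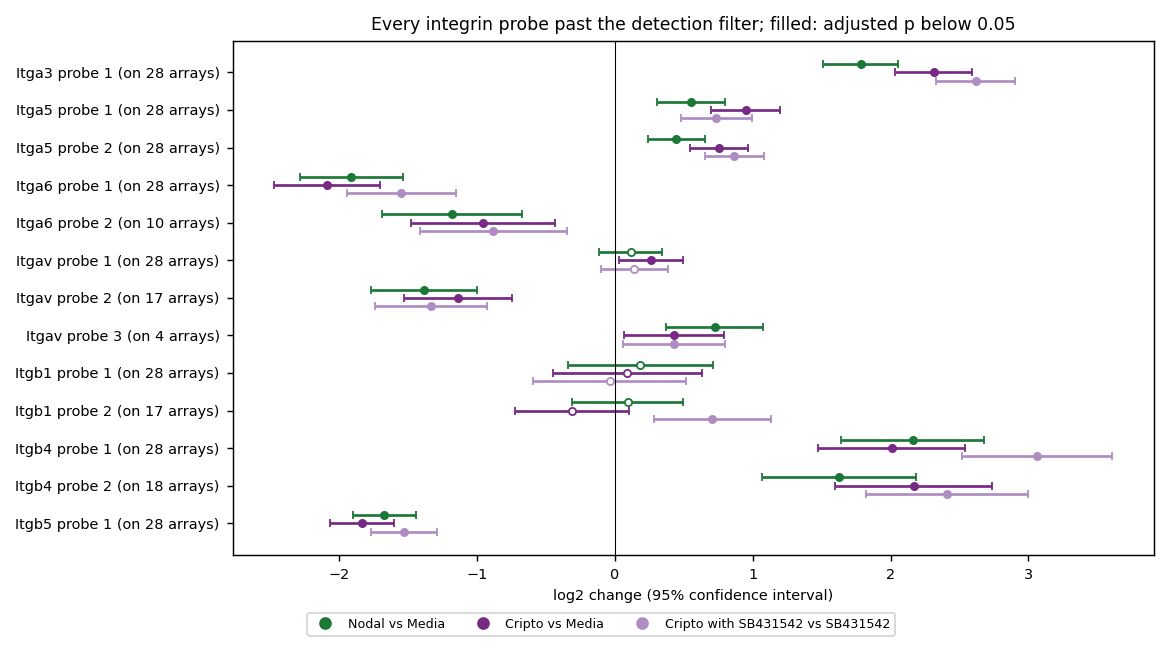
Log2 change with its 95% confidence interval (horizontal axis) for each of the 13 integrin probes past the detection filter, named by gene and by the number of arrays on which each was detected, in 3 comparisons. The probes of Itga5, Itga6 and Itgb4 lie on 1 side of 0 within each gene, and the Itgav probes lie on both sides. Those of Itgb1 also lie on both sides for Cripto with SB431542. For a probe not detected on any array of a group the point is a fitted value near background. Such are the points of Itgav probe 3 and the second Itga6 probe in all 3 comparisons. The same holds for the second Itgb4 probe against Media and the second Itgav probe for Cripto with SB431542.

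Itgb1 showed no called change. It stood at 7.72, 7.38, 7.48, 7.64 and 7.76 in Media. With Nodal it stood at 6.85, 7.80, 7.66, 8.19 and 8.43, and with Cripto at 6.97, 7.50, 8.16, 7.85 and 8.18. Its arrays spread widely within the ligand groups, with an SD of 0.60 for Nodal against 0.16 in Media. The change was 0.19 with a 95% confidence interval of -0.34 to 0.71 for Nodal (limma adjusted p = 0.552) and 0.09 with an interval of -0.44 to 0.63 for Cripto (limma adjusted p = 0.769). With each array centred on its median instead, which puts the median of all genes 0.45 higher with Nodal, Itgb1 was 0.71 higher with Nodal and called (limma adjusted p = 0.0377).

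Itga7, the laminin receptor subunit of muscle, Itgb3, the partner of Itgav in platelets and other cells, and Itgb8, the partner of Itgav that takes part in activating TGF-beta, were not tested. Their 2, 1 and 3 probes were detected on 0 of 28 arrays. Their signals ran from 73.8 to 168 for Itga7, from 77.7 to 201 for Itgb3 and from 74.5 to 166 for Itgb8.

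SB431542 alone moved no subunit past the test. None of the 7 subunits was called, none passed an unadjusted p of 0.05, and of all genes 0% were called and 270 passed an unadjusted p of 0.05 in limma. The changes ran from -0.13 ± 0.27 for Itgb1 to 0.17 ± 0.19 for Itga6. The 95% confidence interval for Itga3 was -0.38 to 0.19 and that for Itgb5 was -0.24 to 0.24.

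**Figure D3:**
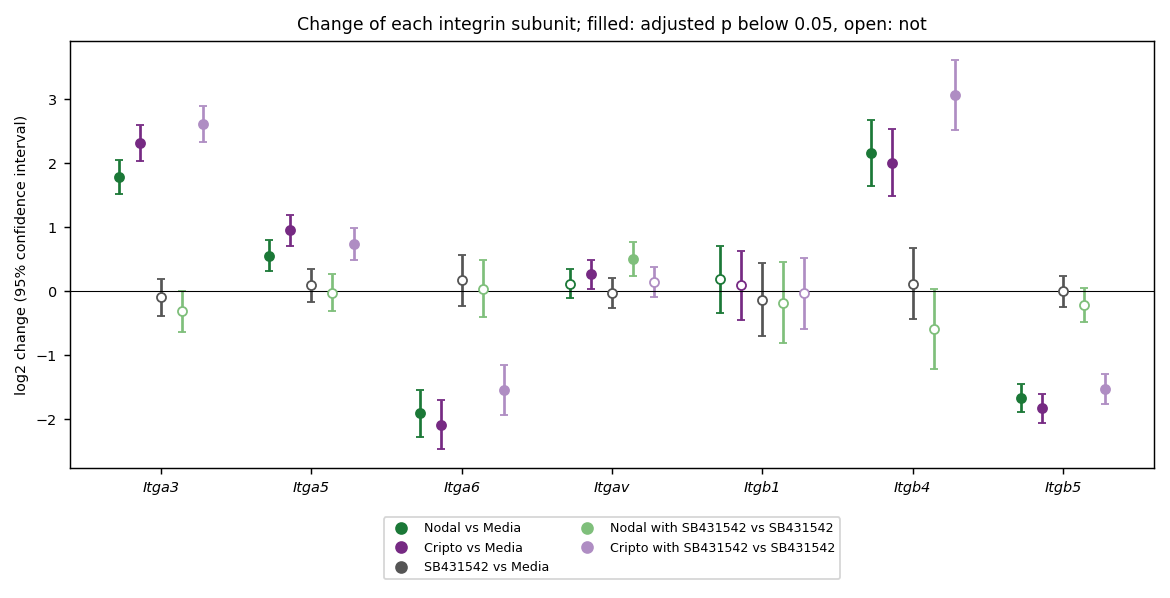
Log2 change with its 95% confidence interval (vertical axis) of the 7 tested integrin subunits in 5 comparisons, with filled points for an adjusted p-value below 0.05. The points for Cripto with SB431542 lie on the same side of 0 as those for Cripto for the 5 subunits with filled points in both, with Itgb4 at 3.06 against 2.01 and Itga6 at -1.55 against -2.08. Those for Nodal with SB431542 run from -0.59 for Itgb4 to 0.50 for Itgav, the only filled one.

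With SB431542 present, Nodal no longer moved Itga3, Itga5, Itga6, Itgb4 or Itgb5 past the test. Itga3 stood at 8.55, 8.67 and 8.97 with Nodal and SB431542, and at 8.91, 9.12, 9.16, 8.86 and 8.44 with SB431542 alone. Itgb4 stood at 6.66, 6.42 and 6.81 with Nodal and SB431542, and at 7.24, 6.97, 7.31, 7.82 and 6.39 with SB431542 alone. These groups overlapped. The Itgb4 change was -0.59 ± 0.30 (limma adjusted p = 0.271) and that of Itga3 was -0.32 ± 0.15 (limma adjusted p = 0.253). Itga6, at 10.40, 10.52 and 10.32, changed by 0.03 ± 0.21, and Itgb5, at 12.95, 13.20 and 13.05, by -0.22 ± 0.13. Only Itgav was called among the 7, where 3.68% of all genes were. It rose by 0.50 ± 0.13 (limma adjusted p = 0.0370), at 7.55, 7.71 and 7.83 against 6.97, 7.11, 7.49, 7.33 and 7.82, groups that overlap, and it lost the call without any 1 of the 3 arrays of Nodal with SB431542 (values of 0.46 to 0.52) and without any of 4 arrays of SB431542 alone (0.45 to 0.55).

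The change that Nodal made differed between cells without and with SB431542 for 5 subunits, with 43.9% of all genes called in this interaction. The difference of the changes, with SB431542 minus without, was -2.10 ± 0.20 for Itga3 (limma adjusted p = 6.14e-08), -0.58 ± 0.18 for Itga5 (0.0130), 1.95 ± 0.28 for Itga6 (1.17e-05), -2.75 ± 0.39 for Itgb4 (1.03e-05) and 1.45 ± 0.17 for Itgb5 (7.49e-07). The Itga5 value lost the call with array brightness as a covariate (-0.46, limma adjusted p = 0.0589) and on chips 1 to 4 (-0.53, limma adjusted p = 0.117). In direct comparison of Nodal with SB431542 against Nodal, 6 subunits were called and 53.6% of all genes were. Itga3, Itga5 and Itgb4 were lower, by 2.19, 0.48 and 2.63, and Itga6, Itgb5 and Itgav were higher, by 2.12, 1.45 and 0.35. Itgav lost the call without any 1 of 5 arrays, with no chip term, under trend and robust moderation, and with each array centred on its median (0.04, limma adjusted p = 0.882), and Itgb1, at -0.50, gained it without the first Nodal array (-0.75, limma adjusted p = 0.0449). The arrays of 5 subunits, all but Itgav and Itgb1, did not overlap (41.6% of all genes). These comparisons share the Nodal arrays with those against Media.

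Cripto moved the subunits with SB431542 present. The comparison with SB431542 alone called 5 of the 7 subunits, where 65.5% of all genes were called. The arrays of 4 subunits did not overlap (42.3% of all genes), those of Itga6 doing so. Itgb4 stood at 10.16, 9.89, 9.88, 9.96 and 9.86 with Cripto and SB431542, and all 5 arrays were above all arrays of SB431542 alone. Its change was 3.06 ± 0.26 (8.35-fold, limma adjusted p = 2.75e-09). Itga3 stood at 11.63, 11.55, 11.49, 11.33 and 11.24, a change of 2.62 ± 0.14 (6.13-fold, limma adjusted p = 1.09e-12).

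Itga5 was 0.74 ± 0.12 higher (limma adjusted p = 2.07e-05). Itgb5 stood at 12.03, 11.75, 11.72, 11.24 and 11.22 against 13.31, 13.30, 13.02, 12.75 and 12.98 with SB431542 alone, and fell by 1.53 ± 0.11 (limma adjusted p = 3.18e-10). Itga6 stood at 9.17, 8.82, 8.99, 7.84 and 7.73 against 10.51, 10.40, 10.44, 9.09 and 9.38, and fell by 1.55 ± 0.19 (limma adjusted p = 4.03e-07). Within the 3 chips that held both groups the change ran from -1.65 to -1.46. For Itgav the probe to AK079805 was not well above background on any array of Cripto with SB431542. It was at least 2.36-fold lower there than with SB431542 alone. The main probe of Itgav changed by 0.14 ± 0.11 (0.47 and called with each array centred on its median). That centring puts the median of all genes 0.31 higher in this comparison. A second probe of Itgb1 rose by 0.71 ± 0.20 (limma adjusted p over all probes = 0.00483), while its main probe changed by -0.03 ± 0.27. That second probe was detected on 1 array of SB431542 alone and 5 of Cripto with SB431542, so its rise starts near background.

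For the addition of SB431542 to Cripto the test called 2 of the 7 subunits, and 8.60% of all genes. Itgb4 was 1.17 ± 0.26 higher (2.25-fold, limma adjusted p = 0.01004), and its arrays did not overlap with those of Cripto (3.53% of all genes). The second probe of Itgb4, detected on all arrays of both groups, changed by 0.57 ± 0.29 and was not called (limma adjusted p over all probes = 0.229), and the second probe of Itga6 was detected on no array of either. Itga6 was 0.71 ± 0.19 higher (limma adjusted p = 0.0253) with overlapping arrays. Without the Cripto array of BeadChip 2, or without the array of Cripto with SB431542 of that chip, neither was called, and Itga6 lost the call without any 1 of 4 further arrays. The interaction called none of the 7, with 1 at an unadjusted p below 0.05 and 0.653% of all genes called in limma. For Itgb4 it was 1.05 ± 0.36 (limma adjusted p = 0.176), so the effect of SB431542 beside Cripto was not shown to differ from its effect alone.

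Cripto and Nodal were given at different doses, 100 and 50 ng/ml. Itga3 was 0.53 ± 0.13 higher with Cripto (1.45-fold, limma adjusted p = 0.00547) and Itga5 was 0.40 ± 0.12 higher (1.32-fold, limma adjusted p = 0.0178). These were 2 of 7 subunits, where 25.1% of all genes were called, and the arrays of all 7 overlapped between the groups (7.25% of all genes did not). Within chips the difference ran from -0.10 to 0.70 for Itga3 and from 0.21 to 0.65 for Itga5. Itga5 lost the call without any 1 of the Cripto array of BeadChip 2 or the Nodal arrays of BeadChips 2 and 5. Itga6 differed by -0.17 with a 95% confidence interval of -0.55 to 0.21, Itgb4 by -0.15 (-0.68 to 0.38) and Itgb5 by -0.16 (-0.39 to 0.07). Without the first Nodal array the difference of Itga6 was -0.44 and called (limma adjusted p = 0.00749).

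The group means of Itga3, Itga5, Itga6, Itgb4 and Itgb5 fell into a low and a high set, though single arrays overlapped for Itga5 and Itga6. These means are not adjusted for chip. From low to high, Itga3 had means of 8.73 with Nodal and SB431542, 8.90 with SB431542, 8.97 in Media, 10.75 with Nodal, 11.31 with Cripto and 11.45 with Cripto and SB431542. Of the neighbours that were compared, the first 3 groups and the last pair did not differ past the test, while Cripto and Nodal did. For Itgb4 the means were 6.63, 7.15, 7.01, 9.17, 9.08 and 9.95 in the same groups, and the last was above Cripto by the test. For Itga5 they were 9.61, 9.80, 9.72, 10.28, 10.68 and 10.59, again with Cripto above Nodal. For Itgb5 they were 13.07, 13.07, 13.11, 11.44, 11.26 and 11.59. For Itga6 they were 10.41, 9.96, 9.84, 7.93, 7.74 and 8.51, where the last was above Cripto. With the chip removed, Itga6 was 10.01 with Nodal and SB431542 and 9.98 with SB431542. The means of Itgav (7.70, 7.34, 7.29, 7.41, 7.58 and 7.53) and Itgb1 (7.36, 7.58, 7.60, 7.78, 7.73 and 7.61) lay closer together.

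The genes whose level followed each subunit most closely over the 28 arrays, with the chip removed, were found by Pearson correlation, a description over arrays that share groups and chips. For Itga3 they were 1500009L16Rik, Car12 and Tnnc1 (r of 0.995, 0.994 and 0.994). For Itgb4 they were Castor1, Pdgfa and Tcea3 (0.987, 0.984 and 0.983). For Itga6 they were Pcdhb22, Isx and Meis1 (0.982, 0.972 and 0.972). For Itgb5 they were Cd82, a tetraspanin that associates with integrins, Tspan17, another tetraspanin, and Plxnd1 (0.990, 0.988 and 0.988). Itga5 was followed by Marcksl1, Tyw1 and Stip1 (0.960, 0.959 and 0.958) and Itgav less closely by Rc3h2, Net1 and Hspa9 (0.800, 0.791 and 0.782).

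Of 16 other integrin subunits, 15 had a probe and 7 passed the filter. With Nodal 2 rose, 3 fell and 2 did not pass the test, and with Cripto 1 rose and 4 fell. The share of all genes called was 57.6% with Nodal and 64.5% with Cripto. Itga11, a collagen receptor subunit, was detected on all 5 Media arrays and on no array with Nodal or Cripto, and was at least 6.06-fold lower with Nodal and at least 5.70-fold lower with Cripto. Itgb6, a partner of Itgav in epithelia, was detected on 1 Media array and all Nodal and Cripto arrays and rose by 1.25 ± 0.20 and 1.35 ± 0.21. Both rises of Itgb6 therefore start near background. Itgb7, a leukocyte subunit, was detected on 5 Media arrays and on none with either ligand, and was at least 1.39-fold lower with Nodal and at least 1.31-fold lower with Cripto. Itga8, a partner of Itgb1, was detected on 3 Media arrays and 1 Nodal array and fell by 0.55 with Nodal, and it was detected on no Cripto array and was at least 1.003-fold lower there. Itga2b, the platelet subunit, was detected on 3 Nodal arrays and no Media array and was at least 1.16-fold higher. No array of another group detected it, so it passed the filter only through the Nodal arrays. Its place among the genes that rose with Nodal therefore carries no weight.

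Of 26 matrix ligands, 16 passed the filter, and with each ligand 5 rose, 9 fell and 2 did not pass. Among all genes 57.6% were called with Nodal and 64.5% with Cripto. The median change over these 16 matrix ligands was -0.34 with Nodal and -0.49 with Cripto, against 0.01 over all genes in both. This list too was picked with earlier results of these data known. Nid1, which links laminin to collagen IV, fell by 4.16 ± 0.17 with Nodal and by 5.14 ± 0.17 with Cripto. Fn1, the fibronectin that the Itga5 product binds, fell by 1.35 ± 0.21 and 1.70 ± 0.21. Thbs2, a thrombospondin, was detected on no array with either ligand and was at least 7.12-fold lower with Nodal and at least 6.70-fold lower with Cripto. Ccn1, a secreted integrin ligand, rose by 1.96 ± 0.20 and 2.54 ± 0.21. Col4a2 and Col18a1 rose by 1.60 and 1.08 with Nodal, and Tgfb1 and Lama5 by 1.27 and 1.16 with Cripto. Col4a2 was detected on 3 Media and 5 Nodal arrays, and Col18a1 on 2 and 4, so these rises start near background. Col4a1, also on this list, had means of 15.24 in Media, 14.81 with Nodal and 14.79 with Cripto.

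**Figure D4:**
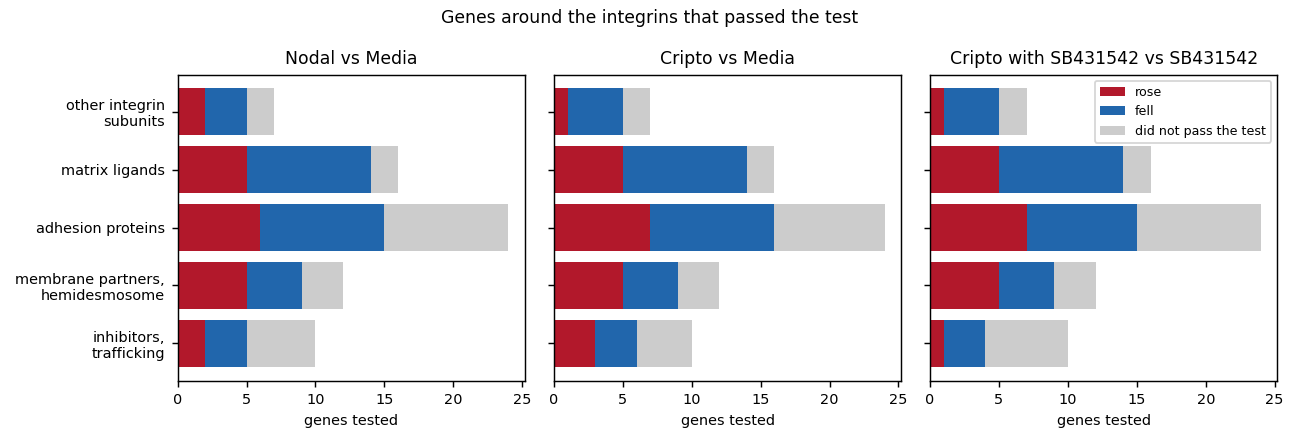
Number of genes (horizontal axis) of 5 lists around the integrins that rose, fell or did not pass the test, among those past the detection filter, for Nodal and Cripto against Media and for Cripto with SB431542 against SB431542. In each list some genes rose and others fell. Of all genes, 57.6%, 64.5% and 65.5% were called in these comparisons.

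Among 32 adhesion proteins that bind integrin tails or act next to them, 24 passed the filter. With Nodal 6 rose, 9 fell and 9 did not pass, and with Cripto 7 rose, 9 fell and 8 did not. These counts were close to the share of all genes called, 57.6% with Nodal and 64.5% with Cripto. Tln2, a talin, fell by 2.47 ± 0.13 with Nodal and 2.37 ± 0.14 with Cripto. Kank1, which binds talin, fell by 2.25 ± 0.09 and 2.31 ± 0.09. Lims2, a partner of integrin-linked kinase, was at least 2.07-fold lower with Nodal and at least 1.95-fold lower with Cripto. Ptk2b, a kinase related to focal adhesion kinase, rose by 0.81 ± 0.15 and 1.40 ± 0.16. Fermt2, a kindlin, rose by 0.79 with Nodal and Kank2 by 0.68, while Flna, a filamin, and Pxn, paxillin, rose by 1.05 and 0.94 with Cripto.

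Of 15 membrane partners and hemidesmosome genes, 12 passed the filter, and with each ligand 5 rose, 4 fell and 3 did not pass. Over all genes the share called was 57.6% with Nodal and 64.5% with Cripto. Cd82 fell by 2.94 ± 0.18 with Nodal, being detected on 1 Nodal array, and was at least 4.90-fold lower with Cripto. Plec and Dst, the plectin and dystonin that link the Itgb4 product to keratin, fell by 1.01 ± 0.16 and 1.20 ± 0.12 with Nodal and by 1.15 ± 0.16 and 1.07 ± 0.12 with Cripto. Krt18, a keratin, rose by 1.56 ± 0.09 and 1.65 ± 0.09, and its partner Krt8 by 0.72 with Cripto. Plaur, the urokinase receptor, rose by 0.90 ± 0.10 and 1.45 ± 0.10, and Slc3a2, which binds integrin beta tails, by 0.85 with Nodal.

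All 10 genes listed under integrin inhibition and trafficking passed the filter. With Nodal 2 rose, 3 fell and 5 did not pass, and with Cripto 3 rose, 3 fell and 4 did not. The share called was no larger than that of all genes, 57.6% with Nodal and 64.5% with Cripto. Itfg1 fell by 2.77 ± 0.27 with Nodal and was at least 3.52-fold lower with Cripto. It was detected on 1 Nodal array, so the Nodal size rests partly on values near background. Sharpin and Numb, an inhibitor of integrins and an adaptor of their endocytosis, fell by 0.51 and 0.57 with Nodal and by 0.91 and 0.65 with Cripto. Rab21, a GTPase of integrin traffic, rose by 0.59 and 0.43, Ankrd28 by 0.56 with Nodal and Itgb1bp1 by 0.42 with Cripto. Rab11fip1, the last of the 3 called higher with Cripto, was detected on 3 Cripto arrays and no Media array, and no bound above 1 could be given for it.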

How the data were processed

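The 28 arrays are Illumina MouseWG-6 v2 BeadChips hybridised with 200 ng of total RNA each. Per the file headers, the authors deposited for each array a bead-averaged signal, a linear intensity with neither background subtraction nor scaling, its bead standard deviation and bead number, and a detection p-value. A table of processed values, deposited by the authors, looks like log2 intensities, and its transformation is not given in the sources used here. BeadStudio and lumi are named, without versions, per the submitters' processing notes.

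R 4.3.3 was used with limma (3.58.1) and, to read the files, data.table (release 1.17.8). The neqc procedure took the background from the detection p-values and applied normexp with an offset of 16, quantile normalisation and log2. Quantile normalisation hides a change of most genes in 1 direction. Of 45281 probes, 34885 had 1 gene symbol, 18 several and 10378 none, and 18471 were detected (p-value below 0.01) on at least 3 arrays. The probe with the highest mean stood for a gene, and each probe was also fitted. The model held group and BeadChip (7 chips, of 2 to 5 arrays) as fixed terms over all 28 arrays, with eBayes (16 residual and 4.19 prior degrees of freedom), two-sided tests and 10 comparisons. A probe not detected on any array of a group has only a bound. It sets the mean of the brighter group against, for each array of the dimmer group, the higher of the probe's own level and the lowest level of a detected probe (5.55 to 6.34). The number of arrays limits the precision. No arrays were identical, and replicates correlated at 0.857 to 0.995. The fit was tested on simulated data.

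The subunits and gene lists were chosen with earlier results of these data known. Named are all subunits, up to 3 genes of each list with the largest called rise or fall with each ligand, and the 3 genes most correlated with each called subunit. Col4a1 was added beside Col4a2. Itga2b, Itgb2, Dab2, Lama1 and Col4a1 are on a list and a marker list. Alternatives changed the background, offset, scaling, filter, probe choice, moderation and chip term, or left out arrays or chips, and those without BeadChip 5 were chosen after seeing the data.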

Additional observations from a re-analysis of the deposited data

Results flagged for a closer look

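In 2 of 35 groups of arrays, 1 array lay far from the others, and chance gives about 1 in 20. Itga3 stood at 11.43 on the first Nodal array, where the next was 10.68. Itgb1 stood at 6.09 on the first array of Cripto with SB431542, where the nearest was 7.91. Responses to the ligands differed by the test for Itga3 (0.53) and Itga5 (0.40) between Cripto and Nodal. The Nodal response differed between cells without and with SB431542 by -2.10 for Itga3, -0.58 for Itga5, 1.95 for Itga6, -2.75 for Itgb4 and 1.45 for Itgb5.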

How the results depend on the processing

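Over 1897 values under the alternatives, 1812 kept the side of the threshold. Of these, 69 had an opposite sign with no call in either, and the rest kept the direction. Another 69 lost the call, 13 gained it and 3 reversed. The directions of Itga3, Itga5, Itga6, Itgb4 and Itgb5 for Nodal and Cripto against Media held in all 26 alternatives, array brightness as a covariate among them, with calls throughout. For Nodal they ran from 1.49 to 2.41, 0.42 to 1.17, -2.12 to -1.20, 1.16 to 2.63 and -1.87 to -1.18. Centring each array on its median put the median of all genes at 0.45 for Nodal, 0.44 for Cripto, 0.31 for Cripto with SB431542 against SB431542 and 0.07 for Nodal with SB431542 against SB431542. It split the calls into 5038 higher and 1160 lower for Nodal (2851 and 2876 with quantile normalisation), 4974 and 1540 for Cripto (3185 and 3236), 4295 and 1911 for Cripto with SB431542 (3166 and 3355), 84 and 1 for Nodal with SB431542 (318 and 48), 1421 and 3754 for Nodal with SB431542 against Nodal (2588 and 2750), 1051 and 2944 for the Nodal interaction (2137 and 2228), 54 and 251 for Cripto with SB431542 against Cripto (420 and 436) and 529 and 639 for Cripto against Nodal (1137 and 1358).

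With Nodal and SB431542 against SB431542, 0 subunits in place of 1 were called under median centring, no detection filter, no chip term, the chip as a random block, the mean of the probes of a gene, trend and robust moderation, and without BeadChip 5. Leaving out 1 array gave 0 to 1. For Cripto against Nodal 1 in place of 2 was called under median centring, no chip term, chips 5 to 7, and without BeadChip 5 (with or without the first Nodal array), 0 on chips 1 to 4, and 1 to 3 when leaving out 1 array. For Cripto with SB431542 against Cripto 1 in place of 2 was called under median centring, the random block and the mean of the probes, 0 with no chip term, on chips 1 to 4 and on chips 5 to 7, and 0 to 2 when leaving out 1 array. The mean over its probes turned Itgav to -0.15 for Cripto against Media (limma adjusted p = 0.1396) and to -0.25 for Cripto with SB431542 against SB431542 (limma adjusted p = 0.0153), since 1 probe falls. Chips 5 to 7 turned Itgb1 to 0.56 in the latter comparison (limma adjusted p = 0.0135), and the cause was not tested. No paired analysis was possible because the labels carry no replicate numbers of their own. The BeadChip, which links arrays of different groups, is a term of the model. Signals near the negative controls limit Itga7, Itgb3, Itgb8 and the dimmer probes.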
